A study of Mus musculus with 12 samples.

Results

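Oxidative phosphorylation subunits were followed in the distal colon of mice that lacked Sprouty2 in the intestinal epithelium. Of 35241 gene symbols in the table, 108 carried names of subunits of the 5 respiratory complexes, and these were taken as the members by name alone, without regard to their values. Of these, 95 were nuclear-encoded and 13 were encoded by mitochondrial DNA, with 45 assigned to complex I, 4 to complex II, 11 to complex III, 24 to complex IV and 24 to complex V. By symbol, 7 members were pseudogenes (the annotation gives 11 as pseudogenes), and Atp5s and Cox7a2l are not core subunits. Ndufa4 and Ndufa4l2 were counted in complex IV, since the NDUFA4 protein belongs to cytochrome c oxidase despite its name.

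RNA of full-thickness distal colon came from 12 mice. The Spry2IEKO group held 6 mice that were homozygous for a floxed Spry2 allele and carried Cre under the villin (Vil1) promoter, which is active in intestinal epithelium. The Spry2FF group held 6 littermates with both floxed alleles and no Cre. Litter A and litter B each held 3 mice of each genotype. The Spry2FF mice were 3 males and 3 females, the Spry2IEKO mice 1 male and 5 females, and all 3 Spry2IEKO mice of litter A were females against 1 of 3 Spry2FF mice. The labels give an age of 6 weeks in one place and 8 weeks in another.

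Oxidative phosphorylation passes electrons from NADH (complex I) and succinate (complex II) through complex III to oxygen at complex IV, and complex V uses the resulting proton gradient to make ATP. Complexes I, III, IV and V mix proteins made from nuclear genes with a few made inside the organelle from mitochondrial DNA, whereas complex II is wholly nuclear-encoded. Colonocytes are known for oxidizing butyrate in their mitochondria. Because the tissue was the whole wall, fewer cells of a type and less RNA per cell cannot be told apart in any value below.

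Values are normalized TPM, that is length-corrected transcript abundances scaled once more between mice, summed over the transcripts of a gene. Their totals per mouse ran from 918816 to 1069158. The paper states an approximate read depth per sample, and the depth of each mouse is unknown. Summed epithelial markers ran from 7594 to 11377 and smooth muscle markers from 3467 to 8500, so both layers were present in every mouse. White fat markers summed to 1055 in Spry2IEKO mouse 4 and 1833 in Spry2IEKO mouse 5, against 97.1 to 264 in the other 10. Spry2 itself was 27.7 ± 3.29 in Spry2FF and 20.0 ± 1.59 in Spry2IEKO (SD, n = 6 each; log2 fold change -0.45; two-sided exact permutation p = 0.00216, the smallest that 12 mice allow; limma adjusted p = 0.16).

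Some members could be confused with near-identical copies elsewhere in the genome, and sequence shows how little separates them. The pseudogene Gm29216 (chr1:24615706-24616197, minus strand, GRCm38) lies over bases 1054 to 1545 of mt-Co1 (chrM:5328-6872, plus strand), the catalytic subunit of cytochrome c oxidase. It differs from mt-Co1 at 6 bases, all near its start. The stretch holding all of them is shown 5′ to 3′ from the GENCODE transcripts, with the differing bases in capitals.
mt-Co1: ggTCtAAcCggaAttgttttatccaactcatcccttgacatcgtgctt
Gm29216: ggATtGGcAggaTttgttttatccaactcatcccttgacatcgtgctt
Counted along mt-Co1, with the mt-Co1 base first, the differences are T1056A, C1057T, A1059G, A1060G, C1062A and A1066T. Of the 462 words of 31 bases in Gm29216, 449 (97.2%) also occur in mt-Co1. Gm12338 (chr11:75599763-75599954, minus strand) is a processed pseudogene of 192 bases that is found whole, base for base, within a 540-base transcript of Cox7c, a small complex IV subunit, at bases 230 to 421. It is shown with its start and stop codons in capitals, because no read within it can be told from Cox7c.
Gm12338: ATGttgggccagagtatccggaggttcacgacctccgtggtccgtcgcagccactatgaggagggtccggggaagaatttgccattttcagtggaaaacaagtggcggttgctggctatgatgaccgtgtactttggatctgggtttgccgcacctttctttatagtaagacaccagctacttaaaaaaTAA

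Promoters of nuclear-encoded members are known for sites of NRF1, ETS factors such as GABP, YY1 and the estrogen-related receptors. Of the members, 68 matched a promoter in the RefSeq table (GRCm38.p6), which spans 250 bases before to 50 after the start. The letters GCGCATGCG (NRF1), on either strand, were in a promoter of 8 of 68 members (11.8%) against 1.95% of all 27025 genes. CCGGAAG (ETS) was in 16 (23.5% against 9.93%), AAGATGGCG (YY1) in 7 (10.3% against 1.64%) and TCAAGGTCA (ERR) in 2 (2.94% against 0.466%). At least 1 of these motifs was in 27 (39.7% against 13.1%). A stretch for each motif, with a further one for NRF1, is given along the gene's strand with the match in capitals, where some matches are the motif read on the opposite strand.
Ndufa8 (NRF1, chr2:36049329-36049357, minus strand): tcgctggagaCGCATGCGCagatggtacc
Uqcr11 (NRF1, chr10:80406808-80406836, minus strand): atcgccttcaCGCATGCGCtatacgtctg
Ndufs7 (YY1, chr10:80249463-80249491, plus strand): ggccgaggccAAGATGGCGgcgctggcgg
Cox8a (ETS, chr19:7217605-7217631, minus strand): ttccgaaataCTTCCGGctcgggcgtc
Atp5g3 (ERR, chr2:73911360-73911388, minus strand): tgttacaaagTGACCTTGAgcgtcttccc
A match is a description of these letters and not evidence of binding.

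Transcripts from mitochondrial DNA dominated the pathway. The 13 mitochondrially encoded members together made up 15.6% to 23.9% of all normalized TPM in a mouse, and the 95 nuclear-encoded members 2.75% to 3.21%. The lowest mitochondrially encoded member was above the highest nuclear-encoded one in 12 of 12 mice. The ratio of the 2 sums ran from 5.09 in Spry2FF mouse 2 to 8.37 in Spry2IEKO mouse 8. TPM divides by transcript length, so levels are set side by side between genes below. Such comparisons are less sure for very short genes and for members whose reads were split with copies.

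Within complex I, the entry point for NADH, Ndufa6 (chr15:82350140-82354322) had the highest mean of the nuclear-encoded members at 516, the median over members with a mean of at least 0.5 was 175, and the lowest was Ndufa11 at 20.7. The 7 mitochondrially encoded subunits of complex I ran from mt-Nd1 at 9373 to mt-Nd5 at 3304. In complex II, which doubles as an enzyme of the tricarboxylic acid cycle, the membrane anchor Sdhd reached 368, and its partner anchor Sdhc 169. In complex III, Uqcrh led at 1111, and mt-Cytb, cytochrome b, stood at 9796.

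Complex IV was led by Cox4i1 at 1020 among nuclear-encoded members, with mt-Co2 at 27534, mt-Co1 at 25880 and mt-Co3 at 22139. Complex V was led by Atp5b, the catalytic beta subunit of ATP synthase, at 1483. Its mitochondrially encoded parts were mt-Atp8 at 42592 and mt-Atp6 at 29968. The order of neighbours was tallied mouse by mouse. mt-Atp6 was above mt-Co1, mt-Co1 above mt-Co3 and mt-Nd4l above mt-Nd4 in 12 of 12 mice, whereas mt-Co1 was above mt-Co2 in 2 of 12. With the values of their nuclear copies added to mt-Co1 (mainly Gm29216), mt-Co2 and mt-Atp6, mt-Co1 was above both mt-Atp6 and mt-Co2 in 12 of 12 mice. Gm29216 is shorter than mt-Co1 (492 against 1545 bases), so adding TPM gives a read on the copy more weight. The place of mt-Co1 in the order is therefore uncertain.

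**Figure D1:**
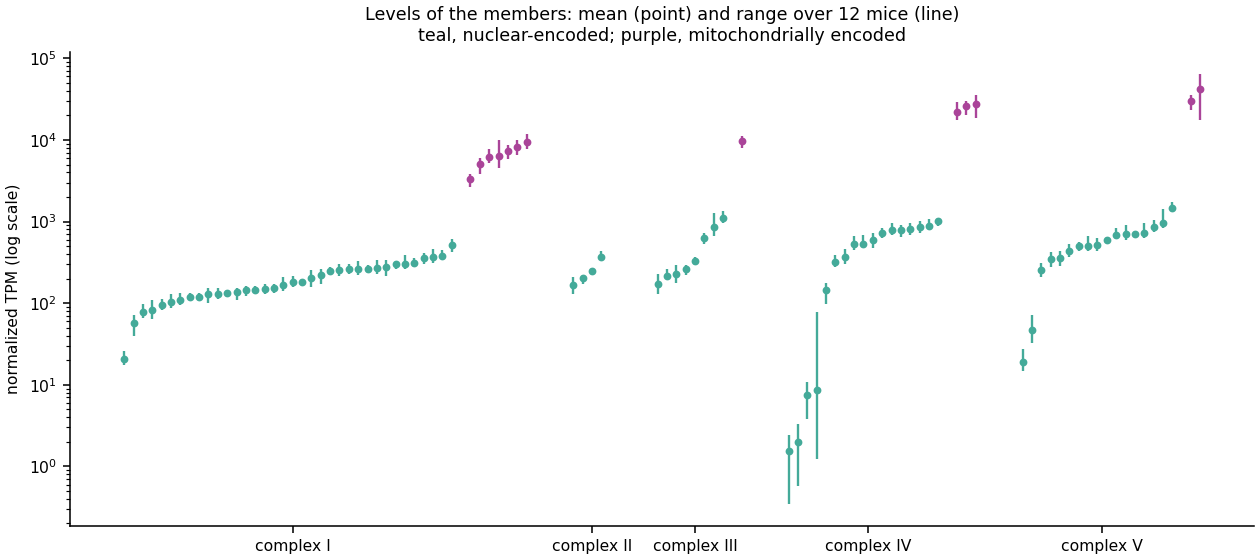
Mean (point) and range over 12 mice (line) of each member's normalized TPM on a log scale, grouped by complex and sorted by mean, for members with a mean of at least 0.5 and a value above 0 in every mouse. Nuclear-encoded members are teal and mitochondrially encoded members purple. The purple points run from 3304 to 42592, above all teal points, of which the highest is Atp5b at 1483.

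mt-Atp8 varied most among the mitochondrially encoded members. It ran from 17743 in Spry2FF mouse 2 to 64633 in Spry2FF mouse 13. Its ratio to mt-Atp6, the neighbouring gene whose start overlaps it (mt-Atp8 at chrM:7766-7969, mt-Atp6 at chrM:7927-8607), ran from 0.762 to 1.80 and was above 1 in 10 of 12 mice. The low mice were Spry2FF 2 and Spry2IEKO 12, at 0.762 and 0.915. Whether this spread lay in the RNA or in how so short a gene was counted was not tested. The median coefficient of variation over 12 mice was 14.1% for the 13 mitochondrially encoded members, 10.6% for the 84 nuclear-encoded members tested and 18.3% for all 15880 genes tested. At means of at least 100, where 71 nuclear-encoded members stood, it was 10.3% against 11% for 1394 genes.

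Whether epithelial Sprouty2 loss went with a different level of the respiratory chain was asked gene by gene across both genotypes. No member passed an adjusted p under 0.05 in limma, and the genotypes differed little in either genome's share of the pathway. Over all 15880 genes tested, 5 were called (0.0315%). Of the 97 members tested (84 nuclear-encoded and 13 mitochondrially encoded), 0 were called, 5 had an unadjusted p under 0.05 in limma (5.15%), and the background at that unadjusted threshold was 6.18% of all genes. The other 11 members had a mean under 0.5. The median log2 fold change was 0.01 over the members tested and 0.01 over all genes. For 91.8% of members the 95% interval of the difference lay within 1.5-fold in either direction, against 68.8% of all genes. These shares are not at like levels. A mean of at least 100 was reached by 71 of 84 nuclear-encoded members tested, against 1394 of all 15880 genes.

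The 5 genes at an unadjusted p under 0.05 were 4 with lower means in Spry2IEKO and 1 with a higher mean. Ndufv3, an accessory subunit of the NADH-oxidizing module of complex I (chr17:31520115-31531331), was at 248, 267 and 280 in Spry2FF (lowest, median, highest) and 221, 229 and 261 in Spry2IEKO. Spry2IEKO mouse 12 alone lay in the Spry2FF range, and the other 5 Spry2IEKO mice were below it. Its log2 fold change was -0.18 (SE 0.0547; 95% interval -0.30 to -0.06; two-sided exact permutation p = 0.00649; limma adjusted p = 0.656).

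Uqcr10, a small subunit of complex III (chr11:4701973-4704342), was at 608, 689 and 731 in Spry2FF and 525, 584 and 662 in Spry2IEKO. The groups overlapped between 608 and 662. Its log2 fold change was -0.20 (exact permutation p = 0.0173; limma adjusted p = 0.708). Cox6a1, the broadly expressed form of a regulatory subunit of complex IV, was at 676, 753 and 845 in Spry2FF and at 627, 671 and 745 in Spry2IEKO (log2 fold change -0.16; exact permutation p = 0.0368; limma adjusted p = 0.778). Atp5g1, which encodes the c subunit of the ATP synthase rotor, was at 338, 361 and 425 in Spry2FF and 275, 334 and 376 in Spry2IEKO (log2 fold change -0.18; exact permutation p = 0.0606; limma adjusted p = 0.801). Both groups overlapped for either gene.

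Ndufa4 (chr6:11900292-11907497) had the higher mean in Spry2IEKO, with 301, 345 and 377 in Spry2FF and 323, 394 and 467 in Spry2IEKO. Spry2IEKO mouse 4 was highest, and the groups overlapped. Its log2 fold change was 0.22 (95% interval 0.03 to 0.40; exact permutation p = 0.0411; limma adjusted p = 0.753). No member had genotypes that did not overlap, as 0.403% of all genes did.

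By complex, the median log2 fold change of the nuclear-encoded members was 0.01 in complex I, 0.01 in complex II, -0.04 in complex III, -0.02 in complex IV and -0.03 in complex V. In complex I they ran from Ndufa11 and Ndufv3, both at -0.18, to Ndufc1 and Ndufa10, both at 0.11. In complex II the range was from Sdhc at -0.10 and Sdhb at -0.01 to Sdhd at 0.03 and Sdha, the flavoprotein subunit, at 0.04. In complex III, Uqcr11 was at -0.19, Uqcrb at 0.06 and Uqcrfs1, the Rieske iron-sulfur protein, at 0.08. In complex V, Atp5d was at -0.18, Atp5s at 0.18 and Atp5g2 at 0.31. None of these passed the test, with limma adjusted p values from 0.656 for Ndufv3 to 0.995 for Sdhb.

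**Figure D2:**
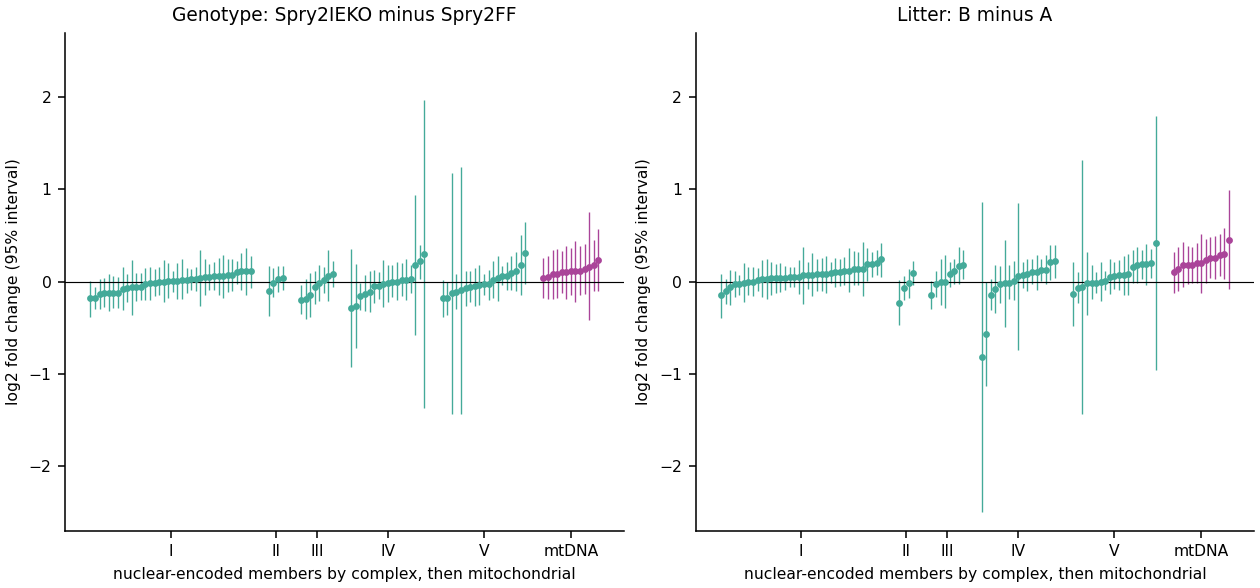
Log2 fold change with its 95% interval from limma for each of the 97 members tested, on the left between genotypes and on the right between litters, with nuclear-encoded members sorted within each complex and the 13 mitochondrially encoded members last. Genotype differences centre on 0.01, whereas the mitochondrially encoded members between litters centre on 0.20. The widest intervals belong to members with low values or, for Cox8b, 1 high mouse.

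The mitochondrially encoded members all had higher means in Spry2IEKO, as had 52.1% of all genes. The log2 differences of the 13 ran from 0.04 (mt-Nd6) to 0.23 (mt-Nd3), with a median of 0.11. Of these members, 0 of 13 had an unadjusted p under 0.05 in limma. Their sum was at 15.6%, 20.1% and 23.9% of the total in Spry2FF (lowest, median, highest) and at 18.7%, 20.7% and 23.0% in Spry2IEKO. The 2 lowest mice were Spry2FF 2 and Spry2FF 3, both males of litter A, and all Spry2IEKO mice lay inside the Spry2FF range. Every mitochondrially encoded member was lowest in one of these 2 mice (7 of 13 in mouse 2 and 6 of 13 in mouse 3). The direction did not hold throughout. In litter A the 13 members were higher by 0.18 to 0.55, in litter B 7 of 13 were lower, among females 11 of 13 were lower, 3 of 13 were lower without Spry2FF mouse 2 and 1 of 13 without Spry2FF mouse 3, with sex as a covariate 1 of 13 was lower, and after quantile normalization 2 of 13 were lower. Sex and genotype are mixed in litter A.

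The nuclear-encoded sum was 3.05% ± 0.0444 of the total in Spry2FF and 2.98% ± 0.172 in Spry2IEKO (SD, n = 6 each). The log2 difference of the sums was -0.01 for the nuclear-encoded and 0.12 for the mitochondrially encoded members, against pooled SDs within genotype of 0.0974 and 0.23. The log2 ratio of nuclear to mitochondrial sums therefore differed by -0.13.

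**Figure D3:**
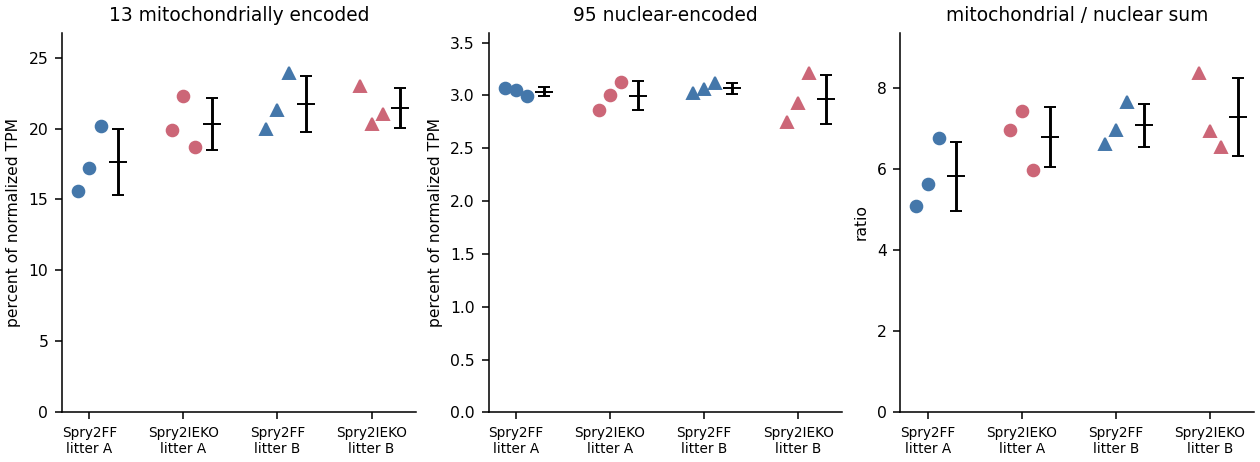
Sums of the mitochondrially encoded (left) and nuclear-encoded members (middle) as percent of all normalized TPM, and the ratio of the sums (right), for each mouse (circles, litter A; triangles, litter B; blue, Spry2FF; red, Spry2IEKO) with the mean and SD of 3 mice beside them. The lowest mitochondrial share, 15.6%, is in Spry2FF of litter A, and the nuclear shares stay between 2.75% and 3.21%.

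Mean marker sums of several cell types were higher or lower in Spry2IEKO, some by less than the spread within genotype. Of these lists, 0 markers passed the adjusted threshold in limma. The sum of goblet cell markers had a log2 difference of 0.57, 10 of 10 had higher means in Spry2IEKO and 8 (80%) had an unadjusted p under 0.05, against 6.18% of all genes. Absorptive colonocyte markers had lower means for 9 of 10 (2 at an unadjusted p under 0.05; log2 difference of sums -0.29). B cell and plasma cell markers were higher for 9 of 9 and white fat markers for 10 of 10, none at an unadjusted p under 0.05, with log2 differences of their sums of 0.91 and 0.90. Of 10 epithelial markers 8 had lower means, and the sum ran from 8891 to 11377 in Spry2FF and from 7594 to 9975 in Spry2IEKO. The goblet marker sum ran from 7291 to 11406 in Spry2FF and from 8875 to 17006 in Spry2IEKO. Their part in the values of the subunits was not tested.

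Between litters, again 0 of 97 members passed the adjusted threshold, against 4.38% of all genes. With Spry2IEKO mouse 8 left out, 4 members did, all higher in litter B: Atp5l, Cox7b, Ndufb10 and Ndufb4c (log2 differences 0.24, 0.29, 0.25 and 0.29; limma adjusted p from 0.0257 to 0.044). That was 4.12% of the members, against 6.03% of all genes in the same fit. At an unadjusted p under 0.05 there were 15 of 97 members (15.5%), against 21.9% of all genes, 14 of them higher in litter B and 1 (Cox4i2) lower. The median difference was 0.07 over the members and -0.05 over all genes. With each mouse rescaled to the same total these were -0.01 and -0.12, and the median was -0.02 over the nuclear-encoded and 0.12 over the mitochondrially encoded members. No member had litters that did not overlap, as 3.72% of all genes did.

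The smallest adjusted p belonged to Ndufa6, an accessory subunit of complex I. It was at 423, 472 and 548 in litter A (lowest, median, highest) and at 506, 548 and 614 in litter B. The litters overlapped between 506 and 548. The log2 difference was 0.20 (SE 0.0618; exact permutation p = 0.00866; limma adjusted p = 0.0858). Cox4i1 (0.13), Uqcrh (0.18), Atp5g3 (0.20) and Cox7b (0.22) were also at an unadjusted p under 0.05, with limma adjusted p from 0.129 to 0.194.

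The mitochondrially encoded members had higher means in litter B for 13 of 13, against 41.2% of all genes. The log2 differences ran from 0.10 (mt-Cytb) to 0.45 (mt-Atp8) with a median of 0.20. After quantile normalization, however, 5 of 13 were lower and the median was 0.02. mt-Atp6 ran from 23281 to 30944 in litter A and from 29543 to 35961 in litter B. The litters overlapped in a narrow band. Its log2 difference was 0.29 (exact permutation p = 0.0108; limma adjusted p = 0.131). Sums over the 13 members had a log2 difference of 0.27, those over the 95 nuclear-encoded members 0.08 (-0.00 after rescaling to the same total), and the log2 ratio of nuclear to mitochondrial sums one of -0.19. Among females alone the mitochondrial sum differed by 0.16 and the log2 ratio by -0.05. Without the 2 mice with most white fat markers these differences were 0.38 and -0.29.

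**Figure D4:**
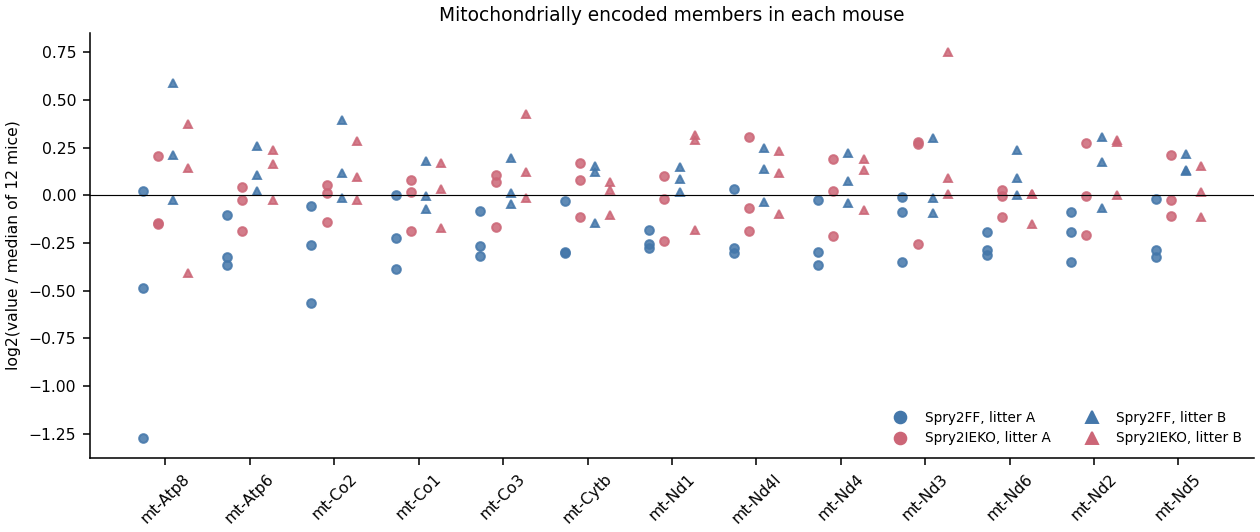
Each mitochondrially encoded member in each mouse as log2 of its value over the median of 12 mice, members ordered by mean level (circles, litter A; triangles, litter B; blue, Spry2FF; red, Spry2IEKO). The lowest point in each column is Spry2FF mouse 2 or Spry2FF mouse 3 of litter A, and mt-Atp8 spreads most, from 17743 to 64633.

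The litters differed in markers of several cell types of the wall. All 7 endothelial markers passed the adjusted threshold with lower levels in litter B. So did 4 of 7 fibroblast markers and 1 of 7 macrophage markers. Over all genes 4.38% were called, and among females alone only 1 gene was. Absorptive colonocyte markers had higher means in litter B for 7 of 10. At an unadjusted p under 0.05 in limma, 5 of the 10 were higher and 2 lower, against 21.9% of all genes. The log2 differences of sums were 0.42 for these markers and 0.16 for the epithelial markers. Endothelial sums were 70.2 to 115 in litter A and 26.8 to 53.0 in litter B. White fat markers had a log2 difference of their sums of -1.46. Litter also goes with the prefix of the deposited sample names, so litter and handling cannot be told apart, and the part of these cell types in the subunit values was not tested.

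Whether the genotype difference itself depended on litter was tested by the interaction term. No member passed the adjusted threshold, against 0.0126% of all genes, and the smallest adjusted p among members was 0.998. The term was below 0 for 88 of 97 members, against 8548 of all 15880 genes. Its median was -0.16 over the members and -0.02 over all genes. Rescaling each mouse to the same total moved these medians to -0.08 and 0.06. At an unadjusted p under 0.05 there were 12 of 97 members (12.4%), all below 0, against 4.19% of all genes: Sdhc, Ndufb2, Uqcrq, Cox4i2, Ndufc2, Ndufa2, Ndufa7, Ndufa11, Ndufs5, Cox7a2l, mt-Nd5 and mt-Nd6. After that rescaling there were 5 of 97 (5.15%), against 4.79% of all genes, and without Spry2IEKO mouse 12 there were 26 of 96 (27.1%), against 4.8%. With sex as a covariate there were 8 of 97, against 4.18% of all genes. The medians were then -0.09 over the members and -0.02 over all genes.

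Sdhc, a membrane anchor of complex II (chr1:171127165-171150603), had the largest such term among complex I to III members. Between genotypes it differed by 0.20 within litter A and by -0.40 within litter B (interaction -0.59, SE 0.151; limma adjusted p = 0.998). The highest mouse was Spry2IEKO 5 of litter A at 211 and the lowest Spry2IEKO 12 of litter B at 129. In mt-Nd6, a complex I subunit gene on the minus strand of mitochondrial DNA, these differences were 0.24 and -0.16. White fat markers had interaction terms below 0 for 10 of 10 genes, 7 at an unadjusted p under 0.05, and without the 2 mice with most fat markers the median over members was -0.16 and over the mitochondrially encoded members -0.04.

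Several complex IV subunits exist as a broad form and a form known from muscle, fat, lung or testis. In the colon wall the broad form made up nearly all of most pairs. Cox4i2, the form known from lung and hypoxia, was 0.0310% to 0.248% of the Cox4i1 and Cox4i2 pair. Cox6a2, a heart and skeletal muscle form, was at most 0.120% of its pair with Cox6a1, and Cox6b2, known from testis, 0.513% to 1.17% of its pair with Cox6b1.

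Ndufa4l2 was 0.153% to 1.03% of its pair with Ndufa4. Cox7b2 was listed at 0 in 10 of 12 mice, and Cox8c at 0 in 12 of 12. Cox7a1, the muscle form of its subunit, was the exception, with 98.3 to 177, which was 17.1% to 25.3% of its pair with Cox7a2. Its share was 21.4% ± 1.37 in Spry2FF and 21.2% ± 3.08 in Spry2IEKO (SD, n = 6 each).

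Cox8b, the form known from muscle and brown fat, was at 78.8 in Spry2IEKO mouse 5 and at 1.24 to 3.50 in the other 11. That 1 mouse also had the highest brown fat marker sum, 120 against 5.68 to 13.2 in the others, and the highest white fat sum. There Cox8b was 9.64% of its pair with Cox8a, whose median share over mice was 0.292%. The genotype log2 fold change of Cox8b, 0.30 (95% interval -1.37 to 1.97), rests on that mouse and was -0.56 without it (limma adjusted p = 0.77). Whether fat in the sample gave this value was not tested.

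Of the 3 genes for the identical c subunit, Atp5g3 had the highest level and made up 69.0% to 74.7% of its pair with Atp5g1, and Atp5g2 stood at 46.5. For Atp5g2, however, the pseudogene Gm10175 (chr7:23946646-23947290) shares every 31-base word with it and held 82.8% to 92.2% of their joint value. Atp5g2 alone had a genotype log2 difference of 0.31, and the pair sum one of -0.02. Cox7c and Gm12338, shown above, split likewise, with the pseudogene at 27.1% of the pair in Spry2FF mouse 2 and up to 64.8% elsewhere.

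The coefficient of variation was 13.8% for Cox7c, 27.1% for Gm12338 and 11.8% for their sum. Ndufb4c, itself a member and a processed pseudogene, held 77.8% to 86.7% of its joint value with Ndufb4. Gm6969, a copy of Cox7a2l, was listed at 0 in Spry2FF mouse 10 and was 3.52 in Spry2IEKO mouse 6 but 143 to 295 in the other 10. Values of these members alone are therefore uncertain where the counting split reads between copies.

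**Figure D5:**
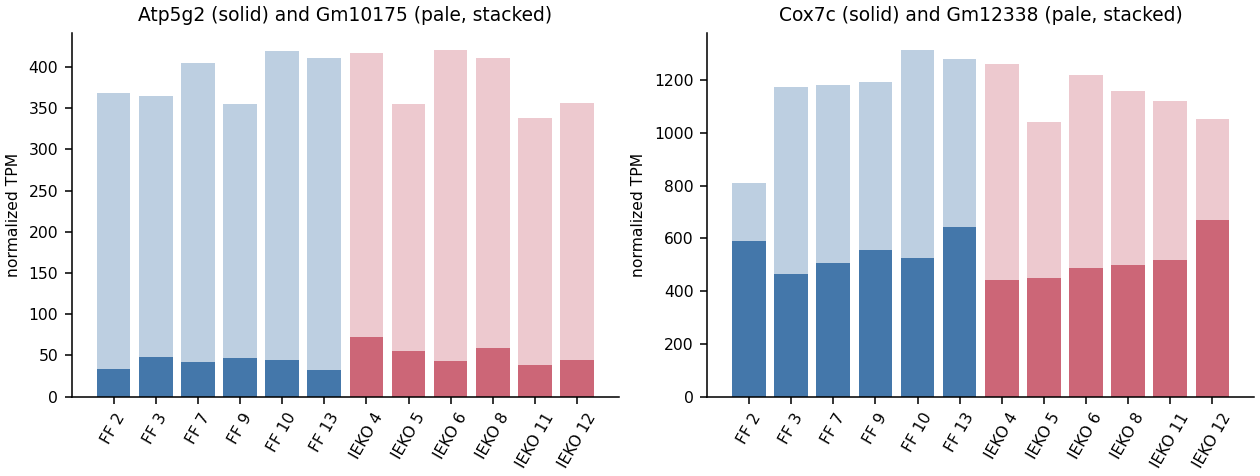
Normalized TPM of Atp5g2 with Gm10175 (left) and of Cox7c with Gm12338 (right), stacked for each mouse, with the member solid and its copy pale (blue, Spry2FF; red, Spry2IEKO). The copy holds 82.8% to 92.2% of the left pair, and 27.1% (Spry2FF 2) to 64.8% of the right pair.

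Gm29216 took a large share of mt-Co1 too, with 11003 to 14523 in litter A and 15570 to 18749 in litter B, where the litters did not overlap. It was chosen for mention after its values were seen. Its litter log2 difference was 0.38 (SE 0.0885; exact permutation p = 0.00216; limma adjusted p = 0.0344), and mt-Co1 itself differed by 0.14 (limma adjusted p = 0.5). The sum of mt-Co1 with its nuclear copies differed by 0.23. After quantile normalization the difference of Gm29216 was -0.00 (adjusted p = 1). It was also no longer called when Spry2FF mouse 2, 3, 7, 9 or 13 or Spry2IEKO mouse 5, 6 or 12 was left out (adjusted p from 0.0609 to 0.0846), without a filter on low values (0.213), among females alone (0.164) and without the 2 mice with most fat markers (0.12).

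In 12 of 81 protein-coding nuclear-encoded members tested, under 50% of the value came from transcripts annotated as coding. For Ndufa10 this was 8.8%, for Ndufs4 14.6%, for Atp5f1 20.6%, for Ndufa5 22.9% and for Cox5b 24.6%. The median over these 81 genes was 97.9%.

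The wider pathway was described by lists of genes outside the membership. For genotype 0 genes were called in any of them. Assembly factors, which build the complexes, had 49 tested genes with a median of 0.04, from Lyrm7, a complex III factor, at -0.49 to Nubpl, an iron-sulfur factor of complex I, at 0.36. Genes for mitochondrial DNA expression (30 tested) had a median of 0.10, with Mterf1b at 0.36, Mterf2 at 0.32 and the mitochondrial RNA polymerase Polrmt at -0.21.

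Among 15 biogenesis regulators the median was 0.00, with the coactivator Ppargc1b at -0.31, the receptor Esrra at -0.28 and the GABP subunit Gabpb1 at 0.18. Electron carriers and dehydrogenases (22 tested) had a median of 0.01, with the coenzyme Q side-chain enzyme Pdss1 at 0.25 and mitochondrial glycerol-3-phosphate dehydrogenase Gpd2 at -0.14. Of 18 genes of the tricarboxylic acid cycle, citrate synthase Cs was lowest, with 416 ± 27.3 in Spry2FF and 365 ± 18.7 in Spry2IEKO (SD, n = 6 each; log2 fold change -0.19; exact permutation p = 0.00866; limma adjusted p = 0.656).

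Glycolysis and lactate genes stood lower in Spry2IEKO in 17 of 19, as did 7600 of all 15880 genes. Their median was -0.13 against 0.01 over all genes. Of the 19, 6 (31.6%) had an unadjusted p under 0.05 in limma, against 6.18% of all genes. Their sum had a log2 difference of -0.15, and that of the epithelial markers, of which 8 of 10 were lower and 6 at an unadjusted p under 0.05, one of -0.17; the part of the epithelial share in it was not tested. Muscle enolase Eno3 was at -0.34 and the lactate exporter Slc16a3 at -0.28 (limma adjusted p 0.776 and 0.892), whereas Aldoc was at 0.19.

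By litter, 4 of the 153 genes tested in these lists were called (2.61%), against 4.38% of all genes. Uqcc1, an assembly factor of complex III, fell from 63.4 ± 4.77 in litter A to 47.2 ± 5.31 in litter B, and Coa5, one of complex IV, from 51.4 ± 2.01 to 43.1 ± 2.66 (log2 differences -0.43 and -0.25; limma adjusted p 0.0164 and 0.0287). Ssbp1, the mitochondrial single-stranded DNA-binding protein, rose from 40.9 ± 3.28 to 50.1 ± 3.04 (0.29; limma adjusted p = 0.0343). Ogdh, of the 2-oxoglutarate dehydrogenase complex, fell from 156 ± 14.8 to 127 ± 8.50 (-0.30; limma adjusted p = 0.0221; SD, n = 6 each). Uqcc1, Coa5 and Ssbp1 were named after their values were seen. All 4 calls were lost among females alone, where the adjusted p of Uqcc1, Coa5, Ssbp1 and Ogdh was 0.103, 0.141, 0.151 and 0.128, and without the 2 mice with most fat markers, where it was 0.0893, 0.163, 0.0923 and 0.0783. Ogdh was also lost after quantile normalization (0.0505). Single mice also ended 3 of these calls. Coa5 lost its call without Spry2FF mouse 2, 3 or 13 or Spry2IEKO mouse 4, 5 or 12 (adjusted p from 0.0504 to 0.0738), Ssbp1 without Spry2FF mouse 2, 3, 7, 9, 10 or 13 or Spry2IEKO mouse 5, 6 or 12 (0.0517 to 0.0794), and Ogdh without Spry2FF mouse 9 or 13 or Spry2IEKO mouse 5 (0.0537 to 0.0545).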

How the data were processed

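Transcript abundances of 12 mice were taken as the authors deposited them. According to the study's methods, reads were pseudoaligned with kallisto to the mouse transcriptome, giving TPM per transcript; sleuth, CASAVA and the build mm10 are named in the submitters' processing notes. The deposited signal values are TPM scaled once more between mice, not counts. The paper states an approximate depth per sample, but that of each mouse is unknown. No counting interval was given and a 0 is only "listed at 0". The labels name a stranded paired-end kit, whereas the paper describes single-end reads. Columns with the authors' p-values and q-values for the genotype comparison were not used.

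After 781 repeated transcripts were dropped, transcripts were summed per gene symbol. The 15880 genes whose mean reached 0.5 entered a linear model of log2(value + 0.5) in limma (version 3.58.1, R version 4.3.3), moderated with a trend and two-sided, with Benjamini-Hochberg adjustment over all of them and a call at an adjusted p under 0.05. Fold changes are on that scale, which understates changes of low genes. Fits were by genotype, by litter with genotype as a covariate, and by their interaction. Named genes also had two-sided exact permutation tests over all 924 assignments of 6 of 12 mice, whose smallest p is 0.00216. Replicates were separate mice. Copies were found by blastn 2.17.0 and shared 31-base words in GENCODE M21 transcripts. The limma step was tested on simulated data. The alternatives are named in the closing section.

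The members and lists were chosen with earlier results of these data known. Named were all mitochondrially encoded members, in each complex the nuclear-encoded member with the highest mean and the 2 largest rises and falls by genotype, any called member, the isoform pairs, the 2 largest rises and falls of each other pathway list, and Spry2. Others were named after their values were seen. Protein sequences were not used here.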

Additional observations from a re-analysis of the deposited data

Results flagged for a closer look

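Single mice stood apart from the other 5 of their genotype by Dixon's test in 8 of 114 groups of 6 mice examined. Chance flags about 1 in 20 such groups. In Spry2IEKO mouse 12, Uqcrh was 1348 (1007 to 1119 in the other 5), Cox7a2 was 691 (477 to 525), Atp5g3 was 1038 (753 to 849) and the nuclear-encoded sum of complex V was 11574 (8660 to 9655). This mouse was also the highest of 12 for 31 of 84 nuclear-encoded members tested. Ndufa11 was 23.7 in Spry2IEKO mouse 6, against 17.5 to 19.7. Cox8b was 78.8 in Spry2IEKO mouse 5, against 1.24 to 2.57, in the mouse with the highest white fat and brown fat marker sums. Cox7b2 was 0.307 in Spry2FF mouse 13 and 0.315 in Spry2IEKO mouse 8, and listed at 0 in the other 5 mice of each genotype.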

How the results depend on the processing

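Counts of called members stayed at 0 for genotype and for the interaction under every alternative run: pseudocounts of 0.1 and 1, no filter or a mean of at least 1, rescaling to 1000000 over all or over nuclear-encoded genes, quantile normalization, sex or litter as a covariate, females alone, each litter alone, copies added and each mouse left out (the covariates, litters and females where the comparison allows). For litter the count was also 0 except without Spry2IEKO replicate 8, so that leaving out single mice gave 0 to 4. In females alone the genotype difference of the mitochondrially encoded sum was -0.12, against 0.12, and that of the log2 ratio of nuclear to mitochondrial sums 0.07, against -0.13. Leaving out single mice moved these to 0.03 to 0.20 and -0.18 to -0.07. The cause was not tested. Adding copies of nuclear members and leaving out the 2 mice with most white fat markers were chosen after seeing the data. The litter difference of Gm29216 was -0.00 after quantile normalization.

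Over all genes, litter calls went from 696 to 1456 after rescaling to 1000000, 422 without a filter, 1 among females alone and 17 without the 2 mice with most fat markers, and ran from 180 (without Spry2IEKO 5) to 957 (without Spry2IEKO 8) when single mice were left out. Genotype calls, 5 in the report, ran from 1 to 11 (without Spry2IEKO 8) when single mice were left out and were 1 to 6 otherwise. Interaction calls, 2 in the report, were 7 without those 2 mice. Members at an unadjusted p under 0.05 ran from 2 (without Spry2FF 13 or Spry2IEKO 4) to 9 (without Spry2IEKO 6) for genotype, from 7 (without Spry2FF 13) to 19 for litter, and from 8 to 26 (without Spry2IEKO 12) for the interaction when single mice were left out, and the interaction gave 5 after rescaling to 1000000. No paired analysis was possible because the genotypes share no mouse numbers. Counting Ndufa4 and Ndufa4l2 in complex I moved no complex sum by more than the spread between mice. With 6 mice a group, the intervals give the range of differences that the values allow. A lack of called members therefore does not show that levels were equal.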
